A study of Mus musculus with 24 samples.

Results

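The Slc25 genes are the mouse genes whose symbol is Slc25a followed by a number, and the count files of this 3T3-L1 series held 47 of them among 24346 features. Of the 47, 39 passed the filter on low counts and were tested for expression among 13356 genes. The other 8 (Slc25a2, Slc25a18, Slc25a21, Slc25a31, Slc25a41, Slc25a43, Slc25a48 and Slc25a54) had too few counts. A filter of this kind keeps a gene that is counted well in 1 group alone.

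The 12 RNA-seq libraries covered 4 groups of 3 biological replicates of 3T3-L1, a mouse preadipocyte line that turns into fat cells under a hormone mixture. Control cells and cells with the genotype label LSD1 overexpression were each sampled at day 0, confluent and not yet induced, and at day 7. Between these days the cells received insulin (10 µg/ml), dexamethasone (1 µM), rosiglitazone (10 µM) and isobutylmethylxanthine (500 µM), and from day 3 insulin alone. LSD1 is a histone demethylase encoded by Kdm1a, and the series also held 4 LSD1 peak lists, 1 for each cell type and day, and 2 Nrf1 peak lists, each list from 1 sample. Nrf1 here is the nuclear respiratory factor, an activator of genes for mitochondrial proteins. Nothing in the labels tells whether the 3 replicates with one genotype derive from 1 line or several, or how LSD1 was delivered. Overexpression and any other feature of that line cannot be told apart here, and the p-values measure the spread between these cultures only.

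Most Slc25 proteins sit in the inner mitochondrial membrane, a barrier to nearly all charged metabolites, and exchange specific solutes across it. They bring phosphate and ADP in and take ATP out, move citrate, malate and aspartate between the matrix and the cytosol, and import acylcarnitines, cofactors, nucleotides and iron. In fat cells the citrate carrier feeds cytosolic acetyl-CoA for fatty acid synthesis, the acylcarnitine carrier feeds fatty acid oxidation, and the branched-chain amino acid carrier is known from brown fat. The uncoupling protein of brown fat belongs to the same protein family under another symbol.

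The library totals used for scaling lay between 19953123 and 26266764 counts. Kdm1a did not pass as higher in the libraries labelled LSD1 at day 0 (97.5 ± 7.47 against 83.1 ± 3.76 CPM, SD, n = 3) and was lower in them at day 7 (54.7 ± 0.606 against 69.4 ± 4.5 CPM), so the groups are called labelled cells throughout. Replicate 1 of the labelled cells at day 0 stood apart: its log2 levels correlated with those of the other replicates of its group at 0.955 and 0.957 across genes, where theirs correlated at 0.993. The summed level of 8 adipocyte markers at day 0 ranged from 46.2 to 63.6 CPM in control cells and from 33 to 44.8 CPM in labelled cells. At day 7 it ranged from 5031.9 to 6859.2 CPM in control cells and from 18531.8 to 22311.9 CPM in labelled cells. Of these 8, 7 were tested, and Lep was at 0 counts in labelled but not in control cells at day 7. The 8 fibroblast markers already differed before induction: 7 were lower and 1 was higher in labelled cells, where 13% of all genes were lower and 12.8% higher. At day 0 they summed to between 43580.1 and 47046.9 CPM in control cells and to between 19969.5 and 26167.1 CPM in labelled cells. At day 7 the sums lay between 12657.2 and 13554.0 CPM in control cells and between 1609.8 and 1720.5 CPM in labelled cells. From day 0 to day 7, 7 fell and 1 rose in control cells, where 24.6% of all genes fell and 23.7% rose. In labelled cells all 8 fell, where 37.2% of all genes did. Of 6 brown or beige markers, Prdm16 was at 0 counts in the labelled libraries at day 7, where the list summed to between 56.1 and 71.5 CPM, against 2.76 to 4.26 CPM in control cells. Cox7a1 (54.9 CPM) and Cox8b (9.3 CPM) made up nearly all of the labelled sum on average, Cidea (0.214 CPM) and Ucp1 (0.0184 CPM) were near 0, and 3 of the 6 were tested. In these bulk samples, fewer cells of a type and less RNA per cell cannot be told apart, and the part of adipocyte content in the differences below was not tested.

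The summed level of the 47 carriers was much higher in the labelled cells at day 7 than in any other group. Per kilobase of transcript, which allows genes to be compared, the family summed to 1562.3 ± 121.0 CPM per kb in control cells at day 0 and 1762.1 ± 28 CPM per kb at day 7 (SD, n = 3). In labelled cells the sum was 1391.4 ± 265.6 CPM per kb at day 0 and 3903.5 ± 204.6 CPM per kb at day 7. The phosphate carrier Slc25a3, the ADP/ATP carriers Slc25a4 (ANT1) and Slc25a5 (ANT2) and the glutathione carrier Slc25a39 made up 72.2%, 67.5%, 66.1% and 72.5% of the sum in these 4 groups. In control cells at day 0 the order was led by Slc25a4 (395.1 ± 51.5 CPM per kb) and Slc25a3 (387.3 ± 41.9 CPM per kb), whose levels did not differ beyond their spread, followed by Slc25a5 (196.5 ± 21.2 CPM per kb) and Slc25a39 (150.4 ± 5.73 CPM per kb). At day 7 Slc25a5 led in control cells with 394.1 ± 24.7 CPM per kb, and in labelled cells Slc25a3 led with 842.3 ± 48.8 CPM per kb. The citrate carrier Slc25a1 was the fifth in all 4 groups, from 68.4 ± 3.7 CPM per kb in control cells at day 0 to 212.7 ± 38.5 CPM per kb in labelled cells at day 7. The pyrimidine nucleotide carrier Slc25a33 was the tenth in labelled cells at day 7, with 50.5 ± 2.33 CPM per kb, and stood at 2.58 ± 0.181 CPM per kb in control cells at day 0.

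**Figure D1:**
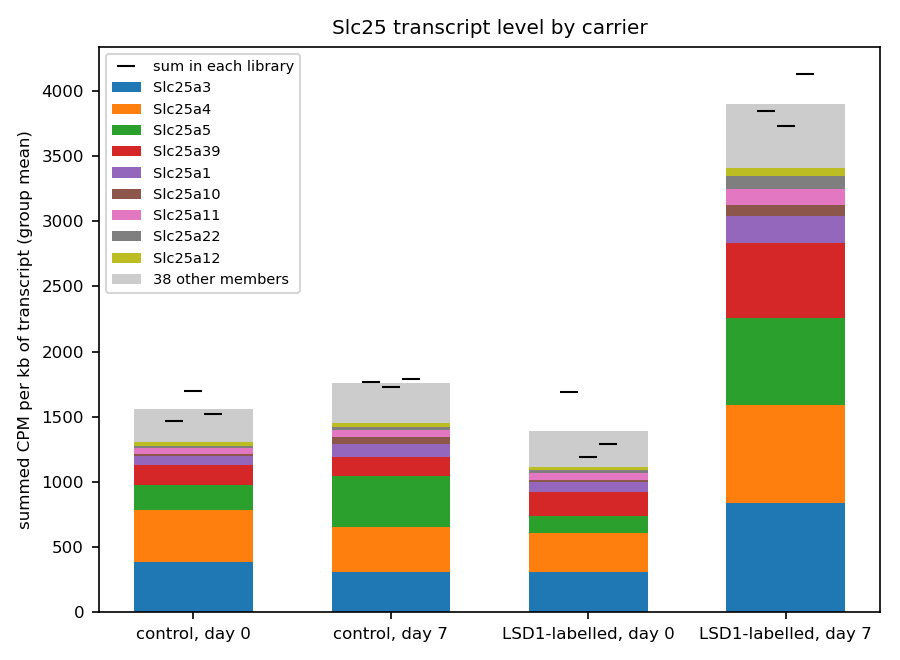
Summed level of the 47 Slc25 genes per kilobase of transcript in the 4 groups; coloured segments are group means of 9 carriers, grey the other 38, and black dashes the sum in each library. The bar of labelled cells at day 7 (3903.5 CPM per kb) stands above the other bars, and the 4 lowest segments of each bar are the phosphate carrier, both ADP/ATP carriers and the glutathione carrier.

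In control cells more carriers rose than fell between day 0 and day 7. Of the 39 tested, 19 were higher, 1 was lower and 19 did not pass, while over all 13356 genes 48.3% passed in either direction, 23.7% higher and 24.6% lower (edgeR quasi-likelihood test, Benjamini-Hochberg adjustment over all genes, adjusted p under 0.05). The members' median log2 change was 0.45, against −0.01 over all genes. The single carrier that fell was Slc25a24, an ATP-Mg/phosphate carrier. Slc25a3, Slc25a4 and Slc25a39 did not pass, at −0.31, −0.21 and −0.08 on the log2 scale.

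In labelled cells 29 of 39 carriers rose from day 0 to day 7, 4 fell and 6 did not pass, with 69.8% of all genes passing, 32.6% higher and 37.2% lower. The members' median was 1.31, against −0.07 over all genes, and 24 of the 29 rises were at least 2-fold. Of all 13356 genes, 2370 were called with a rise of at least 2-fold. Slc25a13, Slc25a24, Slc25a27 and Slc25a37 fell. How many of all genes rose in both cell types, or in labelled cells alone, was not counted. Among the carriers, the rises of 17 were called in both cell types, and 12 more passed in the labelled cells alone. The change differed between the cell types by the interaction test for 9 of those 12 (Slc25a1, Slc25a3, Slc25a4, Slc25a11, Slc25a12, Slc25a20, Slc25a23, Slc25a30 and Slc25a39) and did not pass for Slc25a15, Slc25a32 and Slc25a46. Over the whole family the interaction passed for 29 of 39 carriers. The log2 change in labelled cells minus that in control cells was positive for 23 and negative for 6. A negative value includes a larger fall in labelled cells, as for Slc25a13, Slc25a24, Slc25a27 and Slc25a37. Over all genes 51.9% passed, 23.9% higher and 28.1% lower. The median of the interaction was 0.88 over the members and −0.06 over all genes. The interactions of Slc25a1 (adjusted p = 0.0487 by edgeR) and Slc25a10 (0.039) were each lost when any of 10 of the 12 libraries was left out, with adjusted p up to 0.122 and 0.0828. Without replicate 1 of the labelled cells at day 0, 33 carriers passed in labelled cells (28 higher, 5 lower, with 76.2% of all genes passing, 36.5% higher and 39.6% lower) and 30 in the interaction (24 higher, 6 lower, with 64.7% of all genes passing, 31% higher and 33.7% lower).

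**Figure D2:**
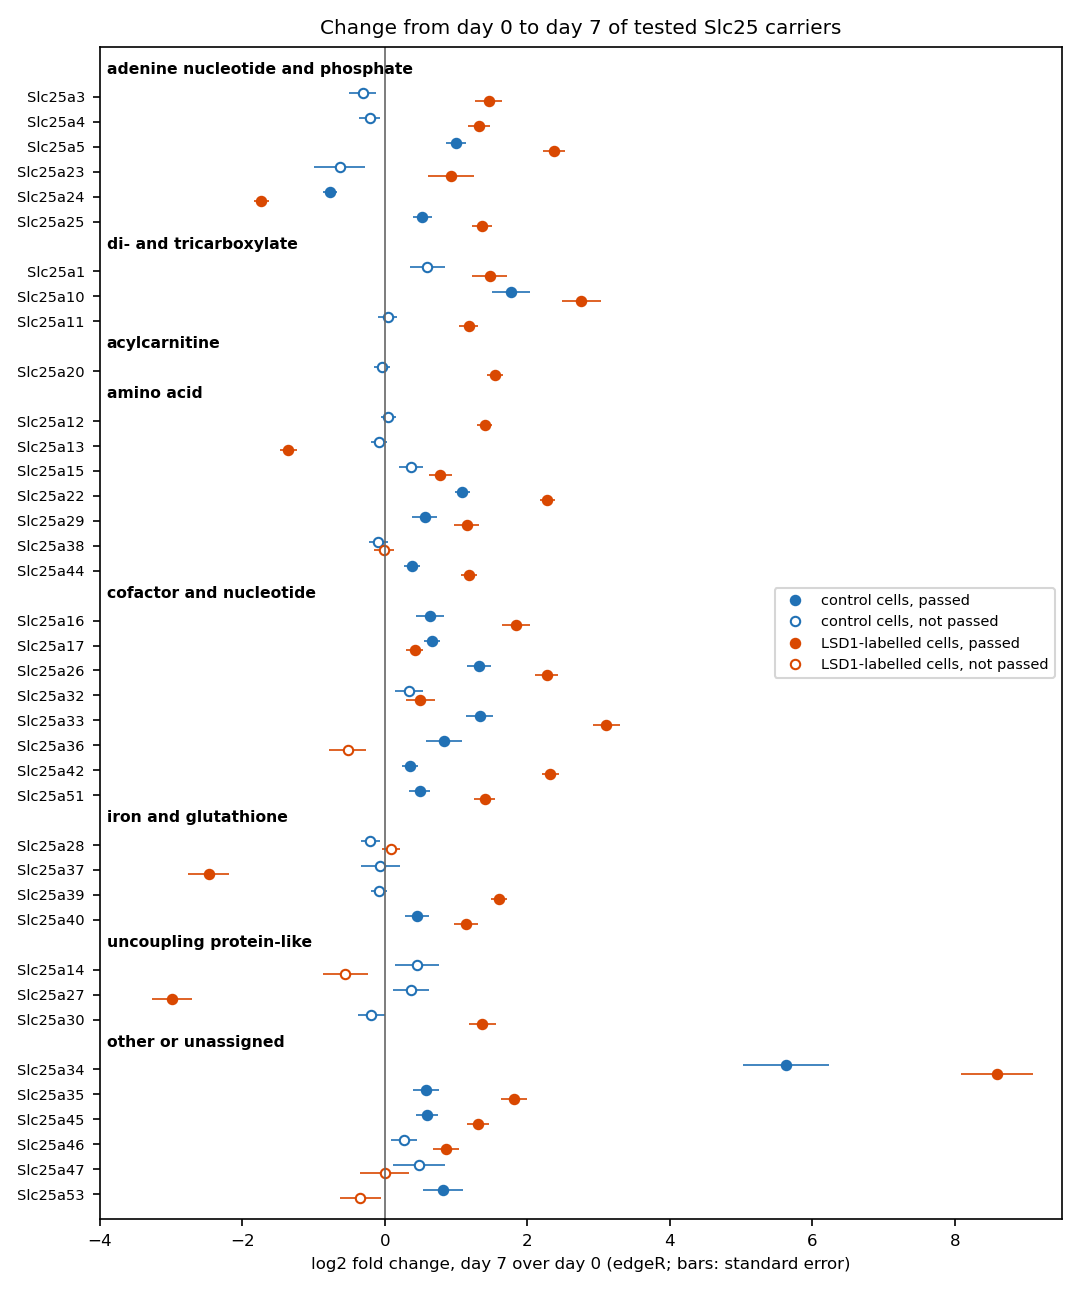
Log2 fold change from day 0 to day 7 of 38 tested carriers, grouped by what they carry, in control cells (blue) and labelled cells (orange); bars are standard errors, filled points passed at an adjusted p under 0.05 and open points did not. Orange points lie to the right of blue ones for most carriers, and Slc25a13, Slc25a24, Slc25a27 and Slc25a37 lie left of 0 in labelled cells.

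Between the labels at day 0, 9 of 39 were higher in labelled cells, 3 were lower and 27 did not pass, with 25.8% of all genes passing, 12.8% higher and 13% lower, and the median was 0.14 against 0.00 over all genes. The share of carriers called, 12 of 39, is near that background. Without replicate 1 of the labelled cells at day 0, 20 carriers passed, 12 higher and 8 lower, and 48.6% of all genes did, 22.6% higher and 26% lower. Slc25a1 then turned from 0.16 to −0.30 (adjusted p = 0.037 by edgeR), Slc25a10 passed lower at −0.98, Slc25a3 at −0.65, Slc25a4 at −0.60 and Slc25a12 at −0.37, and Slc25a23 no longer passed.

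At day 7, 26 of 39 carriers were higher in labelled than in control cells, 6 were lower (Slc25a13, Slc25a24, Slc25a27, Slc25a36, Slc25a37 and Slc25a53) and 7 did not pass. Over all genes 63.6% passed, 30.2% higher and 33.4% lower, and the median difference was 0.90 over the members and −0.05 over all genes. Among the 26, 17 were at least 2-fold higher, and of all 13356 genes 1763 were called at least 2-fold higher. Slc25a22, Slc25a23, Slc25a28, Slc25a33, Slc25a39 and Slc25a44 were higher in labelled cells at both days, but at day 0 only Slc25a22 and Slc25a33 of these kept the call whichever library was left out. The day 0 call of Slc25a39 was lost without any 1 of the control replicates or without labelled replicate 3 (adjusted p up to 0.132 by edgeR), and that of Slc25a23 without control replicate 1 or 3 or labelled replicate 1 or 2 (up to 0.153). That of Slc25a28 was lost without control replicate 1 or 2 (up to 0.0581) and that of Slc25a44 without control replicate 3 (0.0619), and the replicate block ended those of Slc25a39 (0.0763) and Slc25a23 (0.0679). Slc25a5 and Slc25a42 were lower at day 0 and higher at day 7, and Slc25a13 and Slc25a27 were higher at day 0 and lower at day 7. The day 0 call of Slc25a13 was lost without replicate 1 of the control or replicate 3 of the labelled cells (adjusted p up to 0.071).

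Phosphate and adenine nucleotide carriers supply ATP synthase with its substrates and return its product. Of the 6 tested, 5 were higher and 1 lower in labelled than in control cells at day 7, where 30.2% of all genes were higher and 33.4% lower. Slc25a3, the phosphate carrier, stood at 544.8, 661.8 and 559.5 CPM in the 3 control libraries at day 0 and 452.8, 467.3 and 501.9 CPM at day 7. With the label it stood at 650.5, 350.7 and 398.3 CPM at day 0 and at 1299.6, 1198.4 and 1342.9 CPM at day 7, each of which lay above each library of the other groups. The day 7 libraries differed 2.70-fold between the labels (log2 1.43, SE 0.190, adjusted p = 2.59e-05 by edgeR). Within the labelled day 0 group replicate 1 was the highest.

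Slc25a4 (ANT1), the ADP/ATP carrier of heart and muscle, followed the same pattern. Its control libraries held 482.3, 605.3 and 491.0 CPM at day 0 and 457.0, 444.5 and 464.5 CPM at day 7, and its labelled libraries 505.6, 320.9 and 373.3 CPM at day 0 and 1019.8, 966.6 and 1016.7 CPM at day 7. The rise from day 0 was 1.32 on the log2 scale in labelled cells, and the interaction was 1.53 (SE 0.213, adjusted p = 6.73e-05 by edgeR). Slc25a5 (ANT2), the ADP/ATP carrier of most dividing cells, rose in both cell types. It went from 225.1, 279.3 and 259.1 CPM to 508.8, 479.1 and 543.2 CPM in control cells, a 2.01-fold rise (SE 0.146 on the log2 scale, adjusted p = 0.000117 by edgeR). The labelled libraries went from 207.1, 139.8 and 152.8 CPM to 880.4, 778.5 and 918.9 CPM, a 5.16-fold rise (SE 0.152, adjusted p = 1.83e-08 by edgeR). All labelled libraries lay below all control libraries at day 0 and above them at day 7. Slc25a5 has processed pseudogenes whose reads the counting may share, so its level is uncertain.

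The ATP-Mg/phosphate carriers, which respond to calcium and adjust the adenine nucleotide pool of the matrix, moved apart. Slc25a24 was at 156.9, 161.9 and 159.5 CPM in control cells at day 0 and at 94.3, 100.1 and 87.1 CPM at day 7. The labelled libraries went from 148.6, 152.9 and 143.0 CPM to 50, 43.7 and 40.1 CPM, a fall of 3.32-fold (log2 −1.73, SE 0.105, adjusted p = 9.8e-09 by edgeR). The day 7 libraries of each cell type lay below all its day 0 libraries. Slc25a25 rose by 0.53 in control and 1.37 in labelled cells on the log2 scale. Slc25a23 was low: its day 7 libraries held 0.791 to 1.60 CPM in control and 5.19 to 8.44 CPM in labelled cells, a log2 difference of 2.56.

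Di- and tricarboxylate carriers connect the citric acid cycle with the cytosol. All 3 tested rose in labelled cells, where 32.6% of all genes were higher. The dicarboxylate carrier Slc25a10 rose in control cells, where the other 2 did not pass and 23.7% of all genes were higher. Slc25a10, which is abundant in white fat, held 56.2, 67.2 and 68.8 CPM in control cells at day 0 and 235.8, 198.4 and 220.0 CPM at day 7 (3.40-fold, SE 0.268 on the log2 scale, adjusted p = 0.000163 by edgeR). In labelled cells it held 76.4, 32.0 and 33.0 CPM at day 0 and 300.6, 308.3 and 345.5 CPM at day 7 (6.76-fold, SE 0.278, adjusted p = 1.41e-06 by edgeR). At day 7 the labelled libraries lay above the control libraries, but the difference of 0.54 did not pass (adjusted p = 0.0836 by edgeR) and passed with DESeq2 and in a fit of the day 7 groups alone.

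The citrate carrier Slc25a1 held 110.9, 122.0 and 111.5 CPM in control cells at day 0 and 185.6, 172.9 and 162.0 CPM at day 7. The groups did not overlap, yet the change of 0.60 did not pass (SE 0.245, adjusted p = 0.0613 by edgeR). The labelled libraries held 199.2, 92.1 and 94.0 CPM at day 0, where replicate 1 was the highest, and 307.8, 333.0 and 430.0 CPM at day 7. The rise of 1.47 passed (SE 0.249, adjusted p = 0.000156 by edgeR), and so did the day 7 difference between the labels, at 1.04. Slc25a11, the oxoglutarate/malate carrier, stayed between 84.8 and 124.7 CPM in the 9 libraries of the other groups and reached 216.6 to 253.0 CPM in labelled cells at day 7, 2.38-fold above control cells.

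The carnitine/acylcarnitine carrier Slc25a20, which admits long-chain fatty acids for oxidation, had nearly the same level in 3 groups. It stood at 29.4, 35.0 and 29.4 CPM in control cells at day 0, at 31.4, 30.2 and 29.3 CPM at day 7 and at 31.6, 26.8 and 27.2 CPM in labelled cells at day 0. The labelled libraries at day 7 held 85.0, 79.3 and 87.0 CPM, a 2.93-fold rise (SE 0.113 on the log2 scale, adjusted p = 5.8e-08 by edgeR). The interaction of 1.59 passed (SE 0.158, adjusted p = 4.01e-06 by edgeR).

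Among amino acid carriers, 5 of the 7 tested were higher, 1 was lower and 1 did not pass in labelled against control cells at day 7 (30.2% of all genes higher, 33.4% lower), and 3 were higher without replicate 2 of the labelled cells at day 7. The glutamate carrier Slc25a22 held 32.8, 29.0 and 29.6 CPM in control cells at day 0 and 69.3, 65.8 and 60.0 CPM at day 7, and 62.0, 55.1 and 55.2 CPM in labelled cells at day 0 and 265.5, 271.6 and 301.0 CPM at day 7. It was higher in the labelled libraries by 0.91 at day 0 (SE 0.104, adjusted p = 5.75e-05 by edgeR) and by 2.10 at day 7 (SE 0.106, adjusted p = 5.27e-09 by edgeR), with no overlap at either day. Slc25a44, which carries branched-chain amino acids, held 40.8, 38.7 and 37.1 CPM in control cells at day 0 and 51.7, 53.9 and 46.0 CPM at day 7. In labelled cells it held 53.0, 54.4 and 49.6 CPM at day 0 and 106.1, 117.6 and 132.3 CPM at day 7, 2.35-fold above control cells (SE 0.110 on the log2 scale, adjusted p = 7.44e-07 by edgeR). Slc25a29, a carrier of basic amino acids, and Slc25a15, the ornithine carrier, were higher by 0.47 and 0.54 at day 7. The call of Slc25a29 was lost without control replicate 1 or 2 or labelled replicate 2 or 3 of day 7 (adjusted p up to 0.12 by edgeR) and that of Slc25a15 without control replicate 1 or labelled replicate 2 (up to 0.0572). The glycine carrier Slc25a38 passed in no comparison.

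The aspartate/glutamate carriers of the malate-aspartate shuttle went opposite ways in labelled cells. Slc25a12 (aralar), the form of muscle and brain, stood between 84.7 and 102.7 CPM in the 6 control libraries, at 81.1, 68.4 and 73.3 CPM in labelled cells at day 0 and at 195.9, 191.0 and 200.1 CPM at day 7. Slc25a13 (citrin), the form of liver, held 27.3, 30.5 and 30.3 CPM in control cells at day 0 and 29, 27.2 and 27.3 CPM at day 7, and stood at 42.5, 35.6 and 40.0 CPM in labelled cells at day 0 and at 14.1, 15.6 and 16.6 CPM at day 7, below each of the other 9 libraries. From day 0 to day 7 the log2 change was 1.40 for Slc25a12 (SE 0.108, adjusted p = 1.06e-07 by edgeR) and −1.35 for Slc25a13 (SE 0.115, adjusted p = 2.77e-07 by edgeR). In control cells neither passed.

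Carriers of cofactors and nucleotides rose in 8 of 9 cases in control cells, where 23.7% of all genes were higher, and in 4 of 9 without replicate 2 of the control cells at day 0, which ended the calls of Slc25a16, Slc25a36, Slc25a42 and Slc25a51. The folate carrier Slc25a32 did not pass there (0.34). In labelled cells 8 of 9 rose as well, where 32.6% of all genes were higher, and Slc25a36 did not pass. The rise of Slc25a32 there, 0.50, was lost when any of 5 of the 6 labelled libraries was left out, with adjusted p by edgeR up to 0.13. Slc25a33, a pyrimidine nucleotide carrier, held 5.22, 4.75 and 4.56 CPM in control cells at day 0 and 9.09, 14.1 and 13.4 CPM at day 7, and 8.27, 11.6 and 13.1 CPM in labelled cells at day 0 and 95.3, 90.3 and 99.0 CPM at day 7. The day 7 difference between the labels was 7.76-fold (log2 2.96, SE 0.192, adjusted p = 4.7e-08 by edgeR), the largest among carriers with a mean level, taken over all 12 libraries, of 10 CPM or more, a limit that leaves out Slc25a34. Slc25a36, its relative, held 48.9, 27.4 and 38 CPM in control cells at day 0 and 71.9, 65.9 and 65.2 CPM at day 7. In labelled cells it held 33.0, 67.7 and 65.5 CPM at day 0, with replicate 1 the lowest, and 44.1, 40.4 and 31.6 CPM at day 7. It was 1.75-fold lower in labelled than in control cells at day 7 (adjusted p = 0.0151 by edgeR). That call was lost without replicate 3 of the labelled cells at day 7 (adjusted p = 0.0699 by edgeR). The change of Slc25a36 in labelled cells, −0.52, did not pass with all libraries. It passed only without replicate 1 of the labelled cells at day 0 (−0.78, adjusted p = 0.000683 by edgeR).

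Slc25a42, which carries coenzyme A into the matrix, had the largest positive interaction that passed among carriers with a mean level, over all 12 libraries, of 10 CPM or more, at 1.96 (SE 0.163, adjusted p = 9.35e-07 by edgeR). It held 51.4, 46.2 and 53.2 CPM in control cells at day 0 and 66.3, 64.6 and 61.7 CPM at day 7. The labelled libraries held 26.8, 24.9 and 20.4 CPM at day 0, 2.09-fold below control cells, and 112.6, 121.8 and 124.7 CPM at day 7, 1.86-fold above them. The S-adenosylmethionine carrier Slc25a26 and the NAD carrier Slc25a51 were higher in labelled cells at day 7 by 1.28 and 1.11. Slc25a17, which serves peroxisomes, rose by 0.66 in control and 0.42 in labelled cells, and its day 7 difference of −0.14 did not pass.

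Iron and glutathione carriers were divided too. Slc25a39, which imports glutathione, held 240.8, 258.2 and 256.4 CPM in control cells at day 0 and 242.5, 250.1 and 219.8 CPM at day 7. It stood at 344.2, 287.2 and 320.6 CPM in labelled cells at day 0 and at 867.6, 950.0 and 1062.2 CPM at day 7, 4.04-fold above control cells (SE 0.113 on the log2 scale, adjusted p = 1.25e-08 by edgeR). Slc25a37 (mitoferrin 1), the iron carrier of red cell precursors, held 53.6, 28.4 and 42.7 CPM in control cells at day 0 and 36.3, 56.9 and 26.7 CPM at day 7, which overlapped. Labelled cells went from 59.1, 75.6 and 69.3 CPM to 13.9, 13.6 and 9.37 CPM, a fall of 5.53-fold (log2 −2.47, SE 0.291, adjusted p = 6.34e-06 by edgeR). Slc25a28 (mitoferrin 2), the iron carrier of other tissues, held 16.6, 16.2 and 20.1 CPM in control cells at day 0 and 15.2, 15.9 and 15.1 CPM at day 7, and 24.6, 23.9 and 26.1 CPM in labelled cells at day 0 and 24.7, 24.7 and 30 CPM at day 7. It was higher in labelled cells by 0.50 at day 0 and 0.78 at day 7 and changed with day in neither cell type by the test. Slc25a40, a relative of Slc25a39, rose by 1.14 in labelled cells on the log2 scale. Its change of 0.45 in control cells passed with all libraries (adjusted p = 0.0386 by edgeR) and was lost under the replicate block and without any 1 of the 6 control libraries (up to 0.133).

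The 3 carriers that resemble uncoupling proteins differed from each other. Slc25a30 was higher in labelled cells at day 7, at 27.9, 25.3 and 20.5 CPM against 6.59, 6.95 and 7.49 CPM in control cells (3.5-fold, SE 0.192 on the log2 scale, adjusted p = 3.51e-06 by edgeR). Its day 0 libraries lay nearby, at 7.97, 7.93 and 8.09 CPM in control and 6.96, 12 and 9.6 CPM in labelled cells. Slc25a27 (UCP4) was low, at 6.60, 3.91 and 4.28 CPM in control cells at day 0 and 6.73, 6.44 and 5.99 CPM at day 7. In labelled cells it held 12.3, 10.5 and 11.4 CPM at day 0 and 0.938, 1.29 and 2.07 CPM at day 7, a fall of 7.90-fold (log2 −2.98, SE 0.278, adjusted p = 6.56e-07 by edgeR). Slc25a14 (UCP5) passed in no comparison.

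Among carriers with no agreed substrate, Slc25a34 was near 0 before induction and counted well at day 7. Its 3 control libraries had 2, 0 and 2 counts at day 0 and 57, 39 and 102 counts at day 7. Its labelled libraries had 0, 5 and 2 counts at day 0 and 598, 650 and 788 counts at day 7, so that no day 7 library overlapped a day 0 library. At day 7 the level was 35.8 ± 4.34 CPM in labelled and 2.86 ± 1.25 CPM in control cells, a 12.4-fold difference (SE 0.341 on the log2 scale, adjusted p = 1.15e-06 by edgeR), while the interaction of 2.96 did not pass (SE 1.37, adjusted p = 0.0874 by edgeR) but passed with DESeq2 (adjusted p = 0.00711) and, by edgeR, without control replicate 2 of day 0, control replicate 3 of day 7 or labelled replicate 2 of day 0 (0.0408 to 0.0481). The fitted changes from day 0, 5.63 and 8.59, rest on those few counts. Slc25a35 and the outer membrane protein Slc25a46 were higher in labelled cells at day 7 by 1.07 and 0.62, the latter not without replicate 1 of the labelled cells at day 7 (adjusted p = 0.0633 by edgeR). Slc25a45 (0.03) and Slc25a47 (0.59) did not pass, and Slc25a53, at 1.29 to 3.45 CPM in all libraries, was lower at −0.76 with overlapping groups (adjusted p = 0.0339 by edgeR), a call lost without any of replicates 2 and 3 of either day 7 group (adjusted p up to 0.169).

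**Figure D3:**
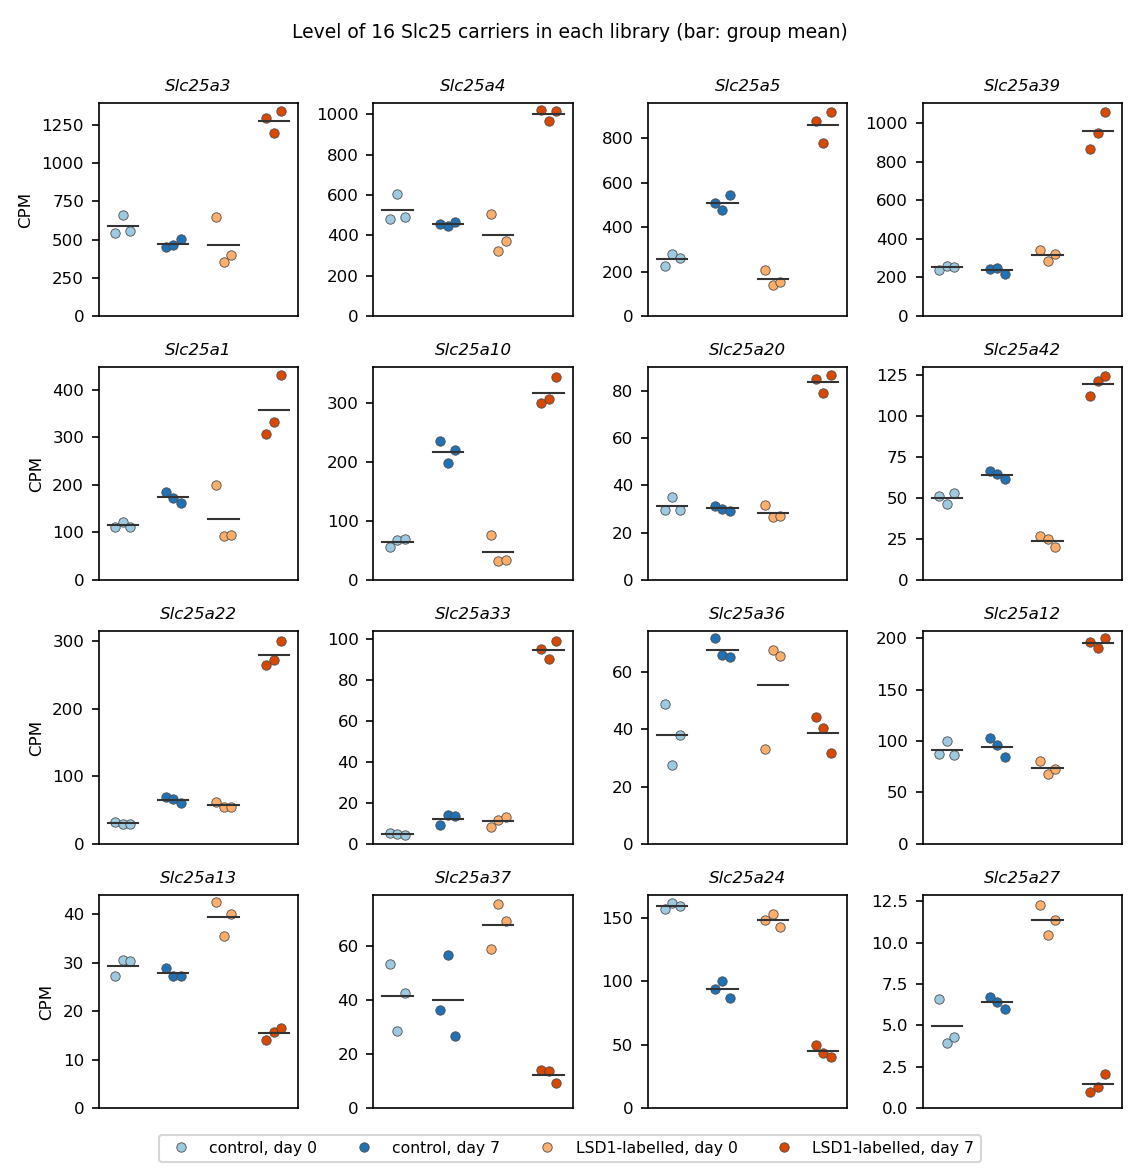
Level in CPM of 16 carriers in each of the 12 libraries, with a bar at each group mean; every axis starts at 0 and has its own range. The 3 labelled libraries at day 7 lie above the other 9 in the panels of Slc25a3, Slc25a4, Slc25a5 and Slc25a33, for example, and below them in those of Slc25a13, Slc25a24, Slc25a27 and Slc25a37.

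Of the 8 untested carriers, Slc25a21, Slc25a31, Slc25a43 and Slc25a48 had 0 counts in all 12 libraries, which allows a level of up to 0.0107 CPM over the libraries together, counting error only. Slc25a31 is the ADP/ATP carrier of germ cells. Slc25a2, Slc25a18 and Slc25a41 had at most 5 counts in a library and Slc25a54 at most 7.

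The balance within pairs of related carriers was computed for 5 pairs. The pairs were chosen after their values had been seen, so the shares, computed per kilobase, are given without a test. Slc25a5 made up 33.3% of the Slc25a5 and Slc25a4 sum in control cells at day 0 and 53.5% at day 7, and 30.1% and 46.8% in labelled cells. Slc25a12 made up 75.5% and 77% of its sum with Slc25a13 in control cells, and 65.2% and 92.6% in labelled cells. Slc25a28 made up 54.1% and 52.3% of its sum with Slc25a37 in control cells, and 49.9% and 85.2% in labelled cells. Slc25a33 went from 17.7% to 22.7% of its sum with Slc25a36 in control cells and from 25.2% to 80% in labelled cells, where the minor carrier of the pair became the major one. Slc25a39 held 95.4% to 97.7% of its sum with Slc25a40 in all 4 groups.

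**Figure D4:**
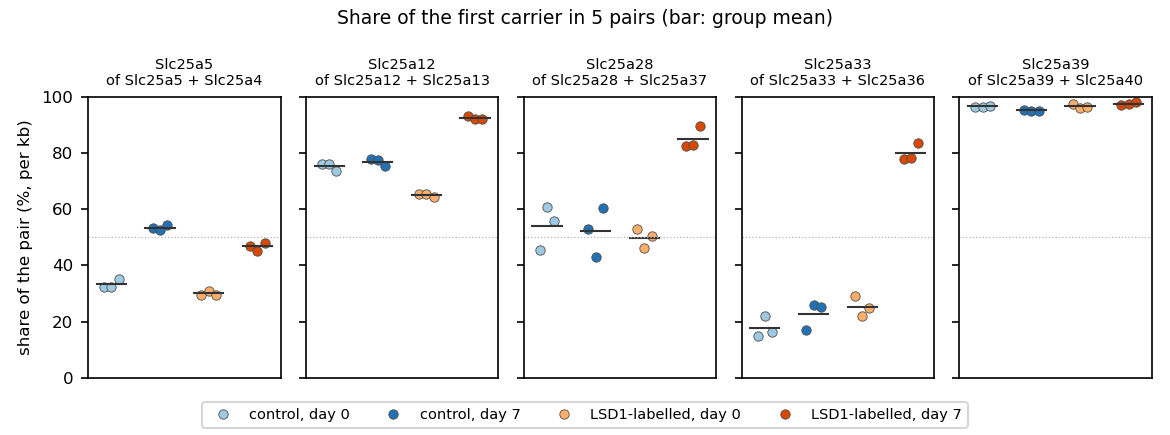
Share, in percent of the summed level per kilobase, of the first carrier in 5 pairs, for each library, with a bar at the group mean. In the middle 3 panels the labelled libraries at day 7 lie above all others (mean shares of 92.6%, 85.2% and 80%), in the first panel both day 7 groups lie above both day 0 groups, and the last panel stays above 95%.

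Enzymes and other transporters that work with these carriers were counted from lists. At day 7, 9 of 12 enzymes of citrate export and the malate-aspartate shuttle were higher in labelled than in control cells and 1 was lower, where 30.2% of all genes were higher and 33.4% lower, a background that holds for each list count at day 7 here. The malate dehydrogenases Mdh1 and Mdh2 were higher by 1.73 and 1.89, while the citrate lyase Acly, at 191.8 against 200.3 CPM, did not pass. Of 8 genes for carnitine-dependent fatty acid entry 7 were higher and 1 lower: Cpt2, the inner membrane enzyme that works beside Slc25a20, by 1.47, the muscle-type Cpt1b by 2.69, and the liver-type Cpt1a was lower by 0.46 on the log2 scale. Of 16 genes for branched-chain amino acid breakdown, the pathway fed by Slc25a44, 14 were higher and 1 lower, with Bcat2, the first enzyme in mitochondria, at 936.8 against 238.4 CPM. Of 12 genes for heme and iron-sulphur synthesis, users of mitochondrial iron, 10 were higher and 0 lower. Of 9 genes for mitochondrial one-carbon, proline and ornithine metabolism 7 were higher and 1 lower, and of 20 other transport proteins of mitochondrial membranes 12 were higher and 3 lower. The pyruvate carrier subunits Mpc1 and Mpc2 were higher by 1.52 and 0.95.

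Of the 5 family relatives under other symbols, Ucp2, Ucp3, Mtch1 and Mtch2 were tested and all 4 were higher in labelled cells at day 7 (30.2% of all genes). Ucp3 held 13 CPM against 0.232 CPM, and Ucp2 held 854.9 against 226.1 CPM (log2 1.92, adjusted p = 8.89e-05 by edgeR). Ucp1, the uncoupling protein of brown fat, was at 0 counts in both control groups and at most at 0.073 CPM in a labelled library.

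LSD1 peaks were counted at a carrier's promoter when they lay within 1 kb of an annotated start, on genome build mm10. At day 0, 8 of the 47 carriers had such a peak in control cells and 32 in labelled cells, and at day 7 it was 29 and 36. All of them were among the 39 tested carriers, and of all tested genes with a start 23.5%, 72.4%, 60.7% and 82.1% had one in these lists. The lists held 3024 and 13997 peaks at day 0 and 8303 and 27221 at day 7, with 1 sample each, so the numbers of carriers also follow how many peaks were called, and no test between the lists was made. Slc25a4, Slc25a11, Slc25a13, Slc25a25, Slc25a27, Slc25a28, Slc25a38 and Slc25a42 had a peak in all 4 lists, 20.5% of the tested carriers against 20.7% of the tested genes. Slc25a14, Slc25a23 and Slc25a47 had none in any list. Among the 8 carriers with a peak in all 4 lists, Slc25a13 and Slc25a27 were lower and Slc25a4, Slc25a11, Slc25a25, Slc25a28 and Slc25a42 higher in labelled than in control cells at day 7, and Slc25a38 passed in no comparison.

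**Figure D5:**
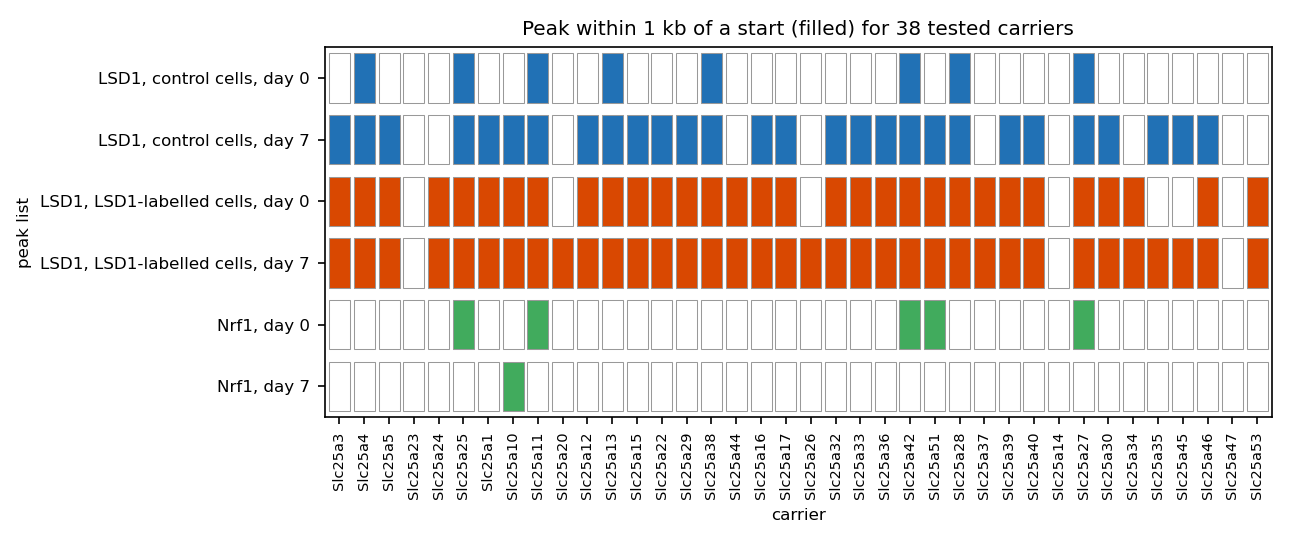
Presence (filled) or absence (white) of a peak within 1 kb of a start for 38 tested carriers in the 4 LSD1 lists (blue control, orange labelled cells) and the 2 Nrf1 lists (green). The upper row holds 8 filled cells and the row of labelled cells at day 7 is filled for most carriers, while the Nrf1 rows hold 5 and 1.

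By the score that the authors' peak caller gave, the peak at Slc25a4 was the highest among carriers in both control lists. It spanned chr8:46210258-46211838 at day 0 in control cells with a score of 237.1, rank 42 of 3024, and its score of 743.17 at day 7 had rank 108 of 8303. In labelled cells its scores were 935.57 at day 0 and 3073.51 at day 7, at ranks 519 and 327 of longer lists, and at day 0 Slc25a11 lay above it, with a score of 2683.07 and rank 77 of 13997 for a peak 11612 bases wide. The centre of that wide peak lay at −4524 bases from the nearest Slc25a11 start, in the gene's direction, so its score is not that of the promoter alone. At day 7 Slc25a10 and Slc25a39 shared the score of 3100 and rank 27 of 27221 in labelled cells, where Slc25a34 had one of 94.9 at rank 17650. Tied peaks take the best rank of the tie. Since the score of 3073.51 at Slc25a4 already had rank 327, many other peaks had scores equal or close to 3100. Slc25a20 had a peak in the labelled day 7 list alone, with a score of 119.09, and so did Slc25a26, with 236.69. These carriers and Slc25a34 were singled out after their peaks had been seen. The promoter of Slc25a4, covered in all 4 lists, and that of Slc25a34, covered in the labelled lists alone, differ in their number of CG pairs. Their GC content was 65.7% and 59.0%. Both are RefSeq promoters of build GRCm38.p6, from 250 bases before to 50 after the start, on the minus strand (chr8:46211013-46211312 and chr4:141623785-141624084), printed 5′ to 3′ with CG pairs in capitals.
Slc25a4: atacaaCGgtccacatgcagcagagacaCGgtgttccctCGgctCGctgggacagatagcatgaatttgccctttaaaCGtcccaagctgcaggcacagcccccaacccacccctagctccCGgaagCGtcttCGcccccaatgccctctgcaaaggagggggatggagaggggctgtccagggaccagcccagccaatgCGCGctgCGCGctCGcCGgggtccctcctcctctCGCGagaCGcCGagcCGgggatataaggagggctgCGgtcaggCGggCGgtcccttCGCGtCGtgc
Slc25a34: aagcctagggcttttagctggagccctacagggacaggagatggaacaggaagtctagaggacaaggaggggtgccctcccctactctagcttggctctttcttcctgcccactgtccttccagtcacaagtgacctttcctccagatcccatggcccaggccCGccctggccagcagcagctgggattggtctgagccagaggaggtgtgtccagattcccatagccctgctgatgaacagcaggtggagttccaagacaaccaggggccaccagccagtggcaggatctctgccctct
Slc25a4 has 25 CG pairs in these 300 bases and Slc25a34 has 1, the fewest of the carrier promoters found. RefSeq promoters were found for 36 of the 47 carriers, 46 promoters in all. The 24 of them covered by a peak in 3 or 4 LSD1 lists had a median of 24.5 CG pairs (6 to 51), the 7 covered in 1 or 2 lists a median of 8 (1 to 19), and the 15 covered in none a median of 11 (3 to 22). The median was 7 over all 32851 promoters of the table and 20 over those of tested genes. For 7 carriers another gene starts within 1 kb on the opposite strand, as Rnf167 does at Slc25a11 and Dbf4 at Slc25a40, and a peak there cannot be assigned to 1 of the genes.

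At day 0 Nrf1 peaks lay at the promoters of Slc25a11, Slc25a25, Slc25a27, Slc25a42 and Slc25a51, 5 of the 39 tested carriers, near the 12.3% of all tested genes. The day 7 list, whose title names the labelled cells but whose genotype label says control, had one at Slc25a10 alone, 1 of 39, where 13.4% of tested genes had one. No carrier had a peak in both lists, while 8.54% of tested genes did. The scores ranged from 58.26 at Slc25a25 to 94.69 at Slc25a42 at day 0, and at Slc25a10 the score of 51.91 was near the list's lowest value of 50.01. A consensus motif of Nrf1, whose match in Slc25a3 is in capitals below, was searched on both strands and was in the central 300 bases of 34.8% of the day 0 peaks and 56.6% of the day 7 peaks, and in 4.6% of all promoters and 9.6% of those of tested genes. It was in 2 of the 46 carrier promoters, those of Slc25a3 and Slc25a31, neither of which had an Nrf1 peak. It was in none of the 4 Nrf1 peaks searched, at Slc25a10, Slc25a11, Slc25a25 and Slc25a42, over their whole width. The shorter TGCGCA, which can overlap that motif, was in the central 300 bases of 37.6% and 59.2% of the peaks. It was in 7.76% of all promoters, 13.2% of those of tested genes and 4 of the 46 carrier promoters (8.7%). Of the 4 peaks searched, it was in the one at Slc25a10. The promoter of Slc25a3, with the motif in capitals, and 3 promoters under an Nrf1 peak without it are given from the same table, 5′ to 3′: Slc25a3 at chr10:91123918-91124217 (minus strand), Slc25a10 at chr11:120491587-120491886 (plus strand), Slc25a25 at chr2:32451421-32451720 (minus strand) and Slc25a42 at chr8:70212232-70212531 (minus strand).
Slc25a3: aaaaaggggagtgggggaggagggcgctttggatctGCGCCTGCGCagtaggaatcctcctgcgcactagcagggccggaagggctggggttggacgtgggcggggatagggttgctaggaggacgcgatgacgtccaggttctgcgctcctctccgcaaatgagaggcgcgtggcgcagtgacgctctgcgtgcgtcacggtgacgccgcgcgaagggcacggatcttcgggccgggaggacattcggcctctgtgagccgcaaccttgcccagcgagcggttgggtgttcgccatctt
Slc25a10: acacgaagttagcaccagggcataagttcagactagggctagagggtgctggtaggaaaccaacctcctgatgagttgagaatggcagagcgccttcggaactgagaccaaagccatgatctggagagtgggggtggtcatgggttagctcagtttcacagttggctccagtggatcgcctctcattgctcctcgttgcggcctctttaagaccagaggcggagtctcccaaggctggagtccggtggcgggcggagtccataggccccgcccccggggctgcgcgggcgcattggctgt
Slc25a25: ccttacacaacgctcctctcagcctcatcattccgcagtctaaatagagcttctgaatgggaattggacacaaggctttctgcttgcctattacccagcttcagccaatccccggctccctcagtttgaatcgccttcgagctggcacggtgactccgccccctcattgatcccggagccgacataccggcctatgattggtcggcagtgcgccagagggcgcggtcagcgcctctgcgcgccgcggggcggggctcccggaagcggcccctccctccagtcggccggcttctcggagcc
Slc25a42: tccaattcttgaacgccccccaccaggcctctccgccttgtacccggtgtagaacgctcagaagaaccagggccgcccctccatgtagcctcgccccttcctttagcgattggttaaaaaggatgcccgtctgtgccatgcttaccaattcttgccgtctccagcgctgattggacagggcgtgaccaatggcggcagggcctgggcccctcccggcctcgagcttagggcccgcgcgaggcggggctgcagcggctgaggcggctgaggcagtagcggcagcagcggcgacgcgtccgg
The match in Slc25a3 begins 214 bases before the start. Slc25a3 had LSD1 peaks in 3 lists and Slc25a10 likewise, and Slc25a25 and Slc25a42 had them in all 4. Expression of these 4 carriers at day 7 differed between the labels in different measure: Slc25a3 was higher by 1.43, Slc25a42 by 0.90 and Slc25a25 by 0.79, and Slc25a10 did not pass at 0.54. The day 7 level of Nrf1 itself was 28.2 ± 1.29 CPM without the label and 33.9 ± 1.70 CPM with it, a difference that did not pass (log2 0.27, adjusted p = 0.116 by edgeR).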

How the data were processed

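Gene expression was measured by RNA-seq in 12 libraries and LSD1 and Nrf1 binding by ChIP-seq in 1 sample per list. Read counts per RefSeq transcript were deposited by the authors without normalization; per the submitters' processing notes the RNA tools were TopHat2, HOMER, edgeR and DESeq 1.8.3, with build mm10. Whether the counting used strand is not given in the sources used here. Peak lists were deposited by the authors with a peak score whose scale is not stated; MACS 1.41 and Bowtie2 are named per the submitters' processing notes.

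Of 30521 transcript rows, 29144 were named from the RefSeq table and 177 from GENCODE; 1200 without a name held 0.896% of the counts and stayed in as features of their own. For each gene the most abundant transcript, by mean count, was kept. The 24346 features were filtered with filterByExpr and fitted with edgeR 4.0.16 (R 4.3.3; TMM, robust quasi-likelihood, 4 group means over all 12 libraries), with Benjamini-Hochberg adjustment over 13356 genes at 0.05. CPM are counts scaled to the TMM-adjusted library total, and CPM per kb divide by transcript length. On simulated counts for control day 7 against day 0, with 200 of 13356 genes changed, 92.9% of the 2-fold and 99.0% of the 4-fold changes were recovered. There were 12 false calls. The simulation gave every gene the same spread and had no library that stood apart, so it does not measure recovery for carriers with wider errors. A promoter peak overlaps by at least 1 base the 1 kb on either side of any RefSeq start.

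The members and lists were chosen with earlier results of these data known. Any Slc25a gene may be named, and 1 member, kept in all counts and sums, is not reported here by itself. Values per library are given for the 6 largest rises and falls in each comparison among carriers that passed with a mean of at least 10 CPM, and for Slc25a1, Slc25a3, Slc25a4, Slc25a5, Slc25a10, Slc25a13, Slc25a20 and Slc25a44. Outside this rule, values per library are also given for Slc25a12, Slc25a27 and Slc25a34. Members with a peak in at least 3 LSD1 lists may be named with their peaks. Other genes come from the lists. Alternatives were DESeq2 1.42.0, other size factors, no filter, summed transcripts, a replicate block, fits of 2 groups, left-out replicates, and other peak windows and scores. Macrophage markers summed to between 0.0516 and 5.32 CPM per library, muscle markers to between 4.16 and 44.1 CPM and endothelial markers to between 0.832 and 3.85 CPM.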

Additional observations from a re-analysis of the deposited data

Results flagged for a closer look

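The change from day 0 to day 7 differed between labelled and control cells by the interaction test of edgeR for 29 carriers, of which 28 are given here as the difference of the log2 changes, labelled minus control. It was negative for Slc25a27 (−3.35), Slc25a37 (−2.41), Slc25a36 (−1.35), Slc25a13 (−1.27), Slc25a53 (−1.16) and Slc25a24 (−0.97). Among carriers of phosphate and nucleotides or of di- and tricarboxylates it was positive for Slc25a3 (1.77), Slc25a4 (1.53), Slc25a5 (1.36), Slc25a23 (1.56), Slc25a25 (0.84), Slc25a1 (0.88), Slc25a10 (0.99) and Slc25a11 (1.14). Carriers of acylcarnitine and amino acids with a positive value were Slc25a20 (1.59), Slc25a12 (1.35), Slc25a22 (1.19) and Slc25a44 (0.80). Cofactor and nucleotide carriers with a positive value were Slc25a42 (1.96), Slc25a33 (1.77), Slc25a16 (1.20), Slc25a26 (0.95) and Slc25a51 (0.91). The others were Slc25a39 (1.68), Slc25a30 (1.56), Slc25a35 (1.24), Slc25a45 (0.72) and Slc25a40 (0.68). The call of Slc25a40 was lost without control replicate 1 or 2 of day 0, control replicate 1 or 3 of day 7 or labelled replicate 1 or 2 of day 7 (adjusted p up to 0.0651 by edgeR). That of Slc25a53 was lost without control replicate 2 or 3 of day 0, control replicate 3 of day 7 or labelled replicate 2 or 3 of day 7 (up to 0.0813). Over all genes 51.9% passed this test.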

How the results depend on the processing

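The day 0 comparison between the labels moved most: 12 carriers passed with all libraries, 6 in a fit of those 2 groups alone, and between 8 and 20 when 1 replicate was left out, the highest without replicate 1 of the labelled cells. Without that replicate Slc25a1 turned to −0.30, from 0.16, and its values with any 1 replicate left out reached 0.35. The replicate numbers do not pair the samples: deviations of samples with the same number correlated between −0.249 and 0.114, and a fit with the replicate number as a block gave 19, 33, 9, 31 and 30 carriers for control cells, labelled cells, the labels at day 0, the labels at day 7 and the interaction, against 20, 33, 12, 32 and 29 without it. In control cells 14 to 17 carriers passed with 1 replicate left out and 26 in a fit of the 2 groups. With all genes kept, the median of all genes moved to −0.20 in labelled cells and −0.28 in the interaction. With only peaks of a score of at least 100, 1 carrier in place of 8 had an LSD1 peak in control cells at day 0, 0 in place of 5 had an Nrf1 peak at day 0 and 0 in place of 1 at day 7. Of 2534 alternative values of single carriers, 2380 stayed on their side of the threshold (among values that did not pass, some of these changed sign), 115 no longer passed, 38 newly passed and 1 value that passed had the opposite sign. The causes were not tested. Peak numbers rest on 1 sample a list, and carriers of a few CPM have wide errors.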
